A study of Mus musculus with 3 samples.

Results

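The genes described here encode A20 (Tnfaip3), the A20-binding adaptors called ABINs (Tnip1, Tnip2 and Tnip3), the deubiquitinases CYLD (Cyld) and OTULIN (Otulin), the adaptor TAX1BP1 (Tax1bp1) and the ubiquitin ligase ITCH (Itch). They are known as brakes on NF-κB signalling and were chosen by gene symbol. The rule itself used no levels, but earlier results of these data were known when the choice was made. All 8 were present among the 55536 genes of the deposited tables, with 60 annotated transcripts between them. RNA from the chromatin fraction of mouse bone-marrow-derived macrophages, primary C57BL/6J cells grown from marrow, was sequenced after depletion of ribosomal RNA. Every culture had been pre-treated for 12 h with Lipid A at 100 ng/ml, kept 12 h after washout, and given Lipid A again at 100 ng/ml for 10 min. The 3 libraries are biological replicates of this 1 condition, from separate biosamples that share a donor identifier. No untreated or singly treated library was analysed here, so induction of these genes by Lipid A could not be measured.

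TLR4, the receptor for Lipid A of the bacterial outer membrane, starts signalling that builds ubiquitin chains, linked through lysine 63 or head to tail (linear chains), on which the kinases that free NF-κB assemble. A20 edits or caps these chains with help from ABINs, TAX1BP1 and ITCH, whereas CYLD and OTULIN cut them. Tnfaip3 is itself an NF-κB target gene in macrophages, which closes a negative feedback loop, and human TNIP3 is known as another such target. Chromatin RNA is rich in transcripts that are being made or are not yet fully spliced.

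Gene totals of expected counts, read counts shared out among transcripts, were 13538605, 19949204 and 18224466 in replicates 1, 2 and 3. RNA input was 1 µg, 250 ng and 500 ng for replicates 1, 2 and 3, so input and replicate cannot be told apart. All 10 macrophage markers were detected, with summed levels of 1430 to 1703 TPM (a level scaled to transcript length and to the total of the table). Of 21 markers of other cell types, 13 were listed at 0 in every library and the summed level was 2.43 to 3.24 TPM. The 1 detected among them, Pecam1, averaged 1.70 TPM.

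Short stretches upstream of the RefSeq start sites are shown first, because NF-κB targets are known to carry κB sites near their starts and Tnfaip3 is one of them. All are read 5′ to 3′ on the strand of the gene from the GRCm38.p6 build. Capitals mark matches on either strand to either of 2 overlapping κB motifs, GGGA and CC with 4 free bases between them, or GGAANNNCC. The Tnfaip3 stretches lie at chr10:19015411-19015440 and chr10:19015516-19015545 on the minus strand, that of Tnip1 at chr11:54962978-54963007 on the minus strand, that of Tnip3 at chr6:65590334-65590363 on the plus strand and that of Cyld at chr8:88696863-88696892 on the plus strand.
Tnfaip3, next to the start: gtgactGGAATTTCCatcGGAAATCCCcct
Tnfaip3, further upstream: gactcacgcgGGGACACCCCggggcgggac
Tnip1: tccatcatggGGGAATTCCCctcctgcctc
Tnip3: gagacatcctGGGAAATCCCagttacatgg
Cyld: ttgaccgagcGGAAAGTCCCttcagccagc

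The matches shown for Tnfaip3 ended 4, 16 and 116 bases before its first RefSeq start, and a further match, not shown, ended 80 bases before its second. In Tnip1 the match ended 48 bases, in Tnip3 45 bases and in Cyld 146 bases before the start. In the 250 bases upstream, 5 of the 7 genes with a RefSeq window held 1 or both motifs, the fifth being Tax1bp1 at its second start. Tnip2 and Otulin had no match in these windows. Among all 32851 such windows, 26.3% held either motif, 17.6% the first and 15.7% the second. The second motif was added after the windows of these genes had been read, so its shares are no test of them. The Tnfaip3 matches ending 4 and 16 bases before the start are to this motif only. A gene with several starts has several windows, so a count over genes and a share of windows are not on the same footing. The AP-1 motif TGANTCA occurred in Tnfaip3 alone, against 6.75% of all windows. The TATA motif TATAAA, counted on either strand, occurred in Tnfaip3 and Tnip3, against 12.4% of all windows. In Tnfaip3 it ended 220 bases before the first start. In Tnip3 it lay on the opposite strand, ending 115 bases before the start. These matches are letters in a window, and binding was not measured.

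All 8 genes were detected, that is at 1 TPM or more in every library, as were 45.6% of the 22028 protein-coding genes. Their mean levels ran over 17.9 to 102.3 TPM, at the 62.3 to 95.1 percentiles of detected protein-coding genes. Tnip3 was the highest and Otulin the lowest in both sets of deposited tables, the gene tables made from a transcriptome alignment and the read-based tables made straight from the reads and summed per gene. The median of log2(TPM + 0.1) over the genes was 5.49 ± 0.08, against 3.60 ± 0.11 over detected protein-coding genes (SD, n = 3 libraries). In bulk RNA, transcription in fewer cells and less RNA per cell cannot be told apart.

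**Figure D1:**
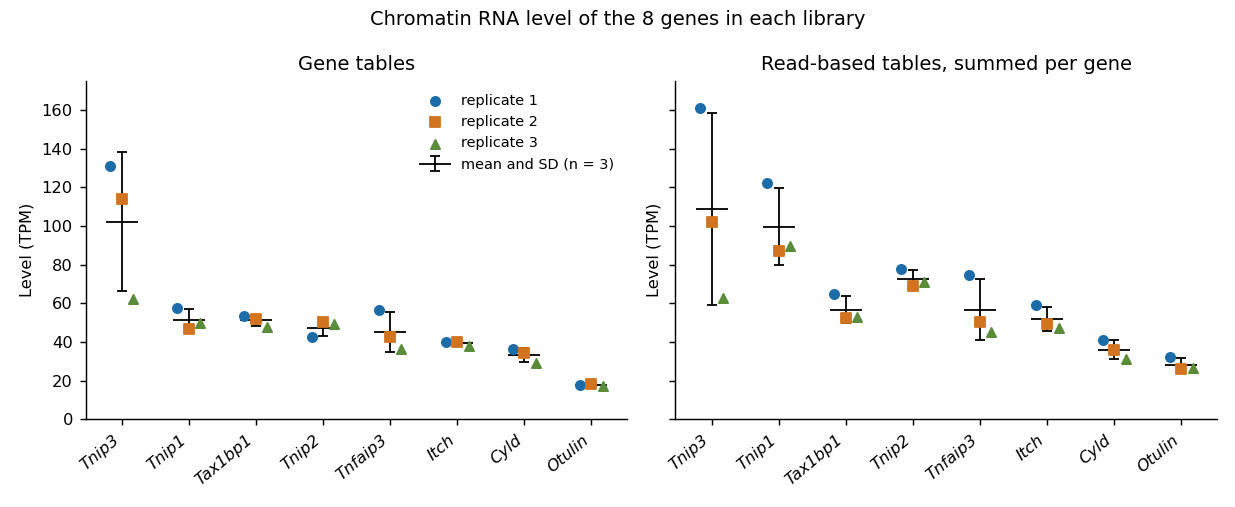
Level in TPM (vertical axis) of each gene in each library, in the gene tables (left) and the read-based tables (right). Coloured points are the 3 replicates and black marks the mean with SD (n = 3). Tnip3 was at 62.1 to 130.9 TPM in the gene tables, and Tnip1 stood higher in the read-based tables.

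Tnfaip3 encodes A20, a ubiquitin-editing enzyme with an OTU deubiquitinase domain and zinc fingers that bind ubiquitin. The gene lies at chr10:19000910-19015657 on the minus strand of mm10. It had 56.7, 42.6 and 36.7 TPM in replicates 1, 2 and 3, on 2280, 2218 and 1869 expected counts. Replicate 1 was the highest and replicate 3 the lowest, with a mean of 45.3 ± 10.3 TPM (SD, n = 3). By level it ranked 1547 among protein-coding genes. The protein-coding genes closest to it over the 3 libraries were Zmym2, Dtx3l and Creb1, at Euclidean distances of 0.03, 0.06 and 0.08 in log2(TPM + 0.1), and 244 of the 22020 genes compared lay within 0.5.

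The 3 ABIN genes encode adaptors known for binding A20. Tnip3 (chr6:65525313-65634040, plus strand), encoding ABIN-3, had 130.9, 113.8 and 62.1 TPM in replicates 1, 2 and 3, on 3869, 3890 and 2331 expected counts. Replicate 1 was the highest and replicate 3 the lowest, also in the read-based tables, which gave 161.3, 102.1 and 62.7 TPM in replicates 1, 2 and 3. With a mean of 102.3 ± 35.8 TPM it ranked 496 among protein-coding genes. Closest to it over the libraries were Birc3, which encodes the ligase cIAP2, Xaf1 and Cept1, at distances of 0.29, 0.29 and 0.33, and 27 genes lay within 0.5.

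Tnip1 (chr11:54910785-54962917, minus strand), encoding ABIN-1, had 57.9, 46.9 and 49.7 TPM in replicates 1, 2 and 3, a mean of 51.5 ± 5.72 TPM on 837 to 919 expected counts. Tnip2 (chr5:34496087-34513991, minus strand), encoding ABIN-2, had 42.5, 50.6 and 49.6 TPM and averaged 47.6 ± 4.44 TPM on 647 to 891 expected counts. Replicate 1 was the highest library for Tnip1 and the lowest for Tnip2, and their ranges overlapped. The read-based tables put both higher, at 99.6 ± 19.8 TPM for Tnip1 and 72.7 ± 4.41 TPM for Tnip2.

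Tnip3 exceeded Tnip1 2.26-fold, 2.43-fold and 1.25-fold in replicates 1, 2 and 3 of the gene tables, a difference of 0.92 ± 0.53 in log2(TPM + 0.1). The exact two-sided sign-flip test gave p = 0.25, the smallest that 3 libraries allow. In the read-based tables the ratios were 1.32, 1.17 and 0.70, the sign was not the same in all libraries and the mean difference was 0.039 ± 0.48. By mean TPM Tnip3 was above Tnip1 in both kinds of table. The size of the gap, and its direction in replicate 3, depended on the quantification. Tnip3 exceeded Tnfaip3 2.31-fold, 2.67-fold and 1.69-fold, and here the read-based tables gave one direction as well, with 2.16-fold, 2.03-fold and 1.39-fold.

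CYLD removes lysine-63-linked and linear chains, and OTULIN removes linear chains only. Cyld (chr8:88697028-88751945, plus strand) had 36.3, 34.6 and 29.3 TPM in replicates 1, 2 and 3 on 1656, 2072 and 1871 expected counts. Otulin (chr15:27542635-27630693, minus strand) had 17.8, 18.5 and 17.3 TPM on 245, 324 and 282 expected counts. Otulin was even across the libraries, Cyld was lowest in replicate 3, and every library held less Otulin than Cyld. Means were 33.4 ± 3.64 TPM for Cyld and 17.9 ± 0.632 TPM for Otulin (SD, n = 3). The read-based tables gave 36.1 ± 5.06 TPM for Cyld and 28.4 ± 3.38 TPM for Otulin, so Cyld was above Otulin 1.87-fold by the gene tables and 1.27-fold by the read-based tables, as means of the 3 ratios. Otulin overlaps Ank, which encodes a membrane transporter, on the opposite strand over 52275 bases. Ank had 290 to 334 expected counts, and how the counting treated strand is not given in the sources used here, so reads of the overlap may be mixed. In the gene tables all of Otulin's TPM fell on Otulin-201 and Otulin-203, which lie within chr15:27605919-27630693. Otulin-202, which reaches further, was listed at 0 TPM there. The position of the overlap was not compared with these transcripts.

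Tnfaip3 exceeded Cyld 1.56-fold, 1.23-fold and 1.25-fold in replicates 1, 2 and 3, a difference of 0.42 ± 0.19 in log2(TPM + 0.1) with p = 0.25 in the exact two-sided sign-flip test. The read-based tables gave 0.62 ± 0.20. Tnfaip3 was above Otulin 3.19-fold, 2.30-fold and 2.12-fold.

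TAX1BP1 is an adaptor that brings A20 to its substrates and also serves as an autophagy receptor, and ITCH is a NEDD4-family ligase that works with A20. Tax1bp1 (chr6:52713729-52766780, plus strand) had 53.7, 52.0 and 47.9 TPM in replicates 1, 2 and 3, a mean of 51.2 ± 2.96 TPM. Itch (chr2:155133509-155226855, plus strand) had 39.9, 40.2 and 37.8 TPM, a mean of 39.3 ± 1.31 TPM. Their ranges did not overlap, and Tax1bp1 was above Itch 1.35-fold, 1.29-fold and 1.27-fold. The read-based tables gave the same direction with smaller ratios of 1.10, 1.06 and 1.12.

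Taking the order by mean as Tnip3, Tnip1, Tax1bp1, Tnip2, Tnfaip3, Itch, Cyld and Otulin, neighbours were called separate where the difference had 1 sign in all 3 libraries of both kinds of table. Of the 7 neighbouring pairs 2 were separate, Itch above Cyld and Cyld above Otulin. Over all 28 pairs 20 were separate. Otulin was separate from all 7 others, and Tnip3 from 5 of 7, the exceptions being Tnip1 and Tnip2. The middle of the order, Tnip1 to Itch, held no separate neighbours.

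Variation between libraries was compared with the trend over all genes by edgeR's goodness-of-fit test with Benjamini-Hochberg adjustment. It called 0 of the 8 genes variable, against a background of 1.13% of 14789 genes. At an unadjusted p under 0.05, 1 of the 8 passed, Tnip3, against 6.23% of all genes. DESeq2 marked 0 of the 8 as a dispersion outlier, against 61 of 14789 genes. Tnip3 had 8.08, 7.63 and 7.07 log2 CPM (counts scaled by library total and TMM factor, with no length) in replicates 1, 2 and 3. Its unadjusted p was 0.00452 and its adjusted p 0.214 in edgeR. Over the alternatives its adjusted p lay between 0.105 and 1.00, the highest being the fit without replicate 3. Its unadjusted p in edgeR was 0.00231, 0.00695 and 0.202 without replicates 1, 2 and 3. Each of these fits has 2 libraries and a dispersion of its own, so they cannot place the spread in 1 library.

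Tnfaip3 had 7.31, 6.82 and 6.75 log2 CPM in replicates 1, 2 and 3, with an adjusted p of 1.00 in edgeR. Tnip3 and Tnfaip3 were thus both highest in replicate 1 and lowest in replicate 3, without passing the test. Tax1bp1, Otulin and Itch had the same order over smaller ranges, with 7.19, 6.98 and 6.97 log2 CPM for Tax1bp1. How many of all genes had this order was not counted. Itch and Otulin varied least, with SDs of 0.01 and 0.04 in log2 CPM. Replicate 1 was the highest library for 7 of the 8 genes by log2 CPM, against 38.1% of the genes tested, the exception being Tnip2. By TPM it was the highest for 5 of 8, against 27.9% of detected protein-coding genes. The part of RNA input in this was not tested.

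**Figure D2:**
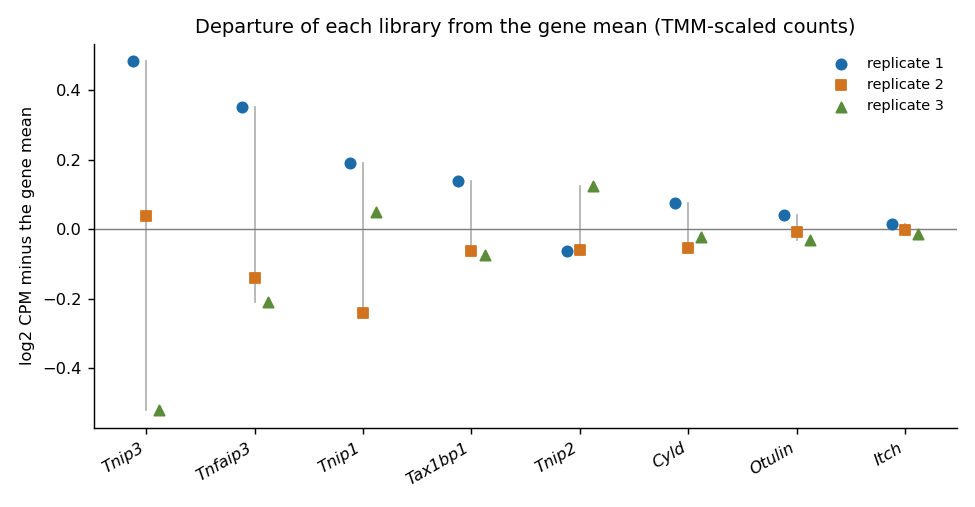
Log2 CPM of each library minus the gene's mean over the 3 libraries (vertical axis), genes ordered by SD. Tnip3 and Tnfaip3 spread the most, with replicate 1 highest and replicate 3 lowest, and the points of Itch nearly coincide. Tax1bp1, Otulin and Itch had the same order over smaller ranges.

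Transcripts annotated as retained intron hold some intron sequence. They took up 59.2%, 58.9% and 50.9% of the summed TPM of the 8 genes in replicates 1, 2 and 3. Replicate 3 was the lowest. A summed share weights genes by level, and Tnip3, highest in level and share, was at its lowest in replicate 3. The part of this weight was not tested. As the mean of the shares per gene the figure was 48.3 ± 2.07%. Of the 60 annotated transcripts of the 8 genes 19 are of this class, against 21422 of 101738 over all protein-coding genes. The mean of the summed share was 56.4 ± 4.71%, against 37.1 ± 0.56% over all protein-coding genes (SD, n = 3). Counted by expected counts it was 49.9 ± 4.21%, against 23.7 ± 0.77% over all protein-coding genes, and the read-based tables gave 51.7 ± 3.09%, against 33.5 ± 0.41%. By TPM, Tnip3 and Itch had the largest shares, 84.6 ± 1.97% and 72.9 ± 2.16%. Tnfaip3 was at 55.7 ± 6.78%, Tnip2 at 51.1 ± 2.65%, Tax1bp1 at 46.1 ± 1.35%, Cyld at 43.2 ± 0.18% and Tnip1 at 32.8 ± 8.17%. Otulin has no transcript of this class, and 34.7 ± 4.08% of its TPM fell on Otulin-203, annotated as a target of nonsense-mediated decay.

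**Figure D3:**
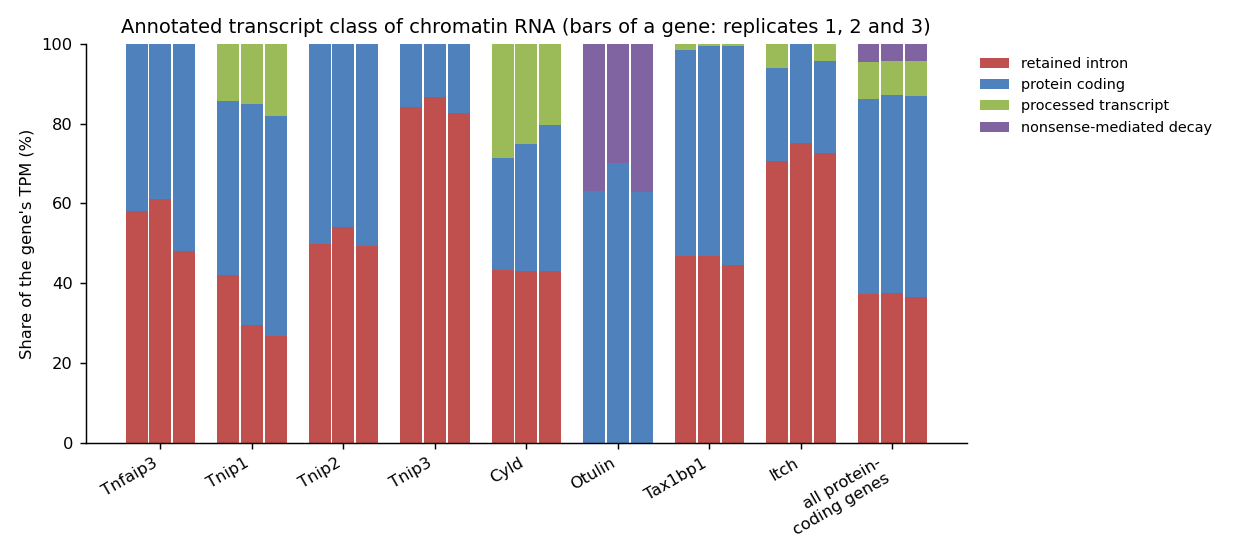
Share of each gene's TPM on each class of annotated transcript (vertical axis, per cent), with 1 bar for each of replicates 1, 2 and 3, and the same over all protein-coding genes at the right. Retained-intron transcripts held 84.6% of Tnip3 on average and none of Otulin, which has no such annotated transcript.

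These shares depend on the annotation and on transcript length, since a short transcript needs few counts for a high TPM. Tnip1-209, the 442-base retained-intron transcript, was the highest of Tnip1 at 17.2 TPM and held 32.8% of the gene's TPM but 6.50% of its expected counts. For Tnip2 the class had 51.1% of TPM and 22.3% of expected counts, and for Itch 72.9% of TPM and 52.6% of expected counts. For Tnip3 and Tnfaip3 the 2 measures were closer, with 84.6% of TPM and 75.8% of expected counts for Tnip3, and 55.7% of TPM and 56.4% of expected counts for Tnfaip3.

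In the gene tables the highest transcripts of Tnfaip3 were 2 retained-intron forms, whereas in the read-based tables the protein-coding Tnfaip3-204 came second at 15.6 TPM, between Tnfaip3-206 at 17.8 TPM and Tnfaip3-205 at 10.1 TPM. In the gene tables Tnfaip3-206 had 16.8, 13.8 and 9.47 TPM in replicates 1, 2 and 3, and Tnfaip3-205, which spans the gene and keeps introns 5 and 7 of the 8 in Tnfaip3-201, had 16.1, 12.2 and 8.15 TPM. The protein-coding Tnfaip3-202, which begins further inside the gene, had 15.5, 8.75 and 8.04 TPM in replicates 1, 2 and 3. The slightly longer Tnfaip3-201, also protein coding, was listed at 0 in replicate 1 and had 3.57 and 6.31 TPM in replicates 2 and 3. In the read-based tables Tnfaip3-201 had 3.46, 2.34 and 4.24 TPM in replicates 1, 2 and 3, so neither the 0 nor the order of the libraries was shared by both quantifications.

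Tnip3 had 4 retained-intron transcripts at similar means, Tnip3-203 at 23.7 TPM, Tnip3-204 at 22.6, Tnip3-206 at 22.2 and Tnip3-205 at 18.2 TPM, and the protein-coding Tnip3-201 followed at 14.9 TPM. In the read-based tables Tnip3-205 led, with a mean of 36.0 TPM. Which transcript ranked first was therefore not settled by these tables. The transcripts Tnip3-207 and Tnip3-208 begin about 65.1 kb upstream of the next start. They held 0.84 ± 1.03% of the gene's TPM by the gene tables, against 13.6 ± 1.63% by the read-based tables. The other transcripts begin at or beyond the inner start, next to which the κB stretch shown above lies.

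**Figure D4:**
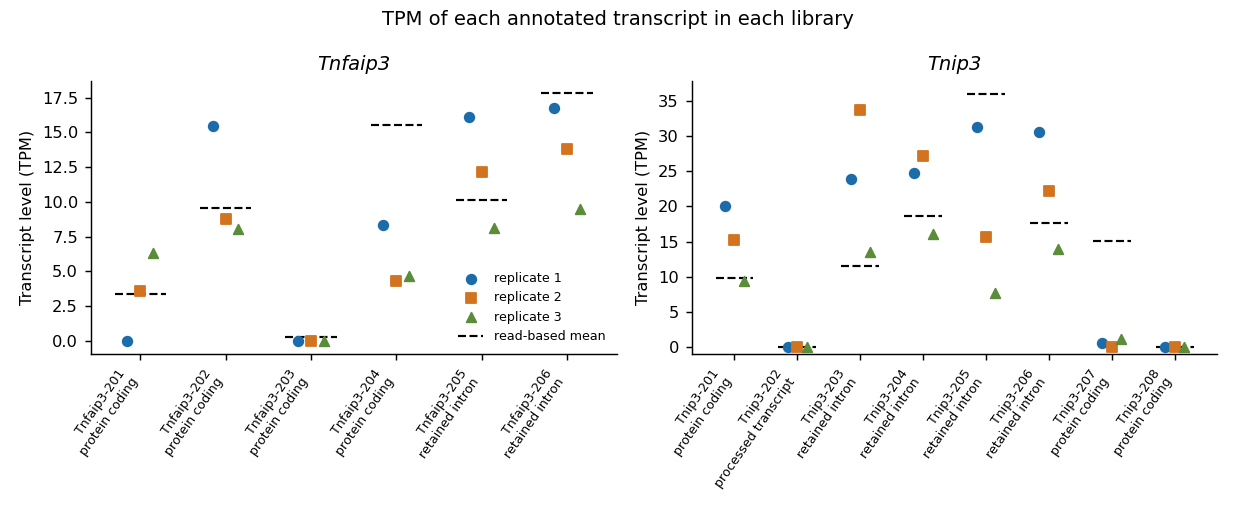
TPM (vertical axis) of each annotated transcript of Tnfaip3 (left) and Tnip3 (right) in the 3 replicates, with the mean of the read-based tables as a dashed line. Tnip3-207 averaged 15.02 TPM by the read-based tables and 0.64 TPM by the gene tables.

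Of the other genes in the gene tables, Tnip2-202 (21.3 TPM), Otulin-201 (11.7 TPM) and Tax1bp1-201 (22.6 TPM), all protein coding, led their genes, with Tnip2-206 (11.6 TPM) and Tax1bp1-202 (13.1 TPM) the highest retained-intron forms of Tnip2 and Tax1bp1. In the read-based tables Tnip2-206 at 21.9 TPM and Tnip2-202 at 21.2 TPM were nearly equal. Cyld was led by the processed transcript Cyld-208 at 8.34 TPM, followed by the retained-intron transcript Cyld-207 at 7.11 TPM. Itch was led by Itch-204 at 14.6 TPM, a retained-intron form of 1171 bases at the 5′ end of the gene. Against the transcript of longest coding sequence in each gene, only Tnfaip3-205, Tnip3-206 and Cyld-207 keep an intron whole. The other retained-intron forms, such as Tnfaip3-206 and Itch-204, hold introns only in part. Borders of introns kept whole are shown for Tnfaip3-205 and Tnip3-206. Each stretch is from the GENCODE M21 sequence of the transcript that keeps the intron, 5′ to 3′ on the strand of the gene, with intron bases in capitals. With positions on mm10, the introns are Tnfaip3 intron 5 (chr10:19005732-19006862, minus strand) and Tnip3 intron 4 of Tnip3-207 (chr6:65590653-65593468, plus strand), which Tnip3-206 keeps.
Tnfaip3 intron 5, 5′ border: aggacagtggacctgGTAAGAAAACATCAG
Tnfaip3 intron 5, 3′ border: TTTTTTCCCCTTCAGaacttcgcgctgttc
Tnip3 intron 4, 5′ border: atggagcacacagagGTAAGAGCATGTGTC
Tnip3 intron 4, 3′ border: TTATTATCTTTAAAGtgtgctccaccaaga

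Both introns begin with GT and end with AG, as do Tnfaip3 intron 7 of 699 bases and Cyld intron 7 of 817 bases. The Tnfaip3 intron shown has 1131 bases and the Tnip3 intron 2816 bases.

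Genes of the same pathway were set beside the 8. The linear ubiquitin ligase LUBAC, which makes the chains that OTULIN cuts, had all 3 genes detected, Rbck1 at 73.4 ± 7.28 TPM, Rnf31 at 56.1 ± 8.74 TPM and Sharpin at 54.5 ± 4.01 TPM. Otulin at 17.9 TPM was below each of them. All 17 genes of the ubiquitin machinery and its targets were detected, from Birc3 at 102.4 TPM, Malt1, the protease that cleaves A20, at 101.8 TPM and Tab2, a subunit of the TAK1 complex that binds lysine-63 chains, at 73.9 TPM to Tab3 at 3.78 TPM. Of 13 other deubiquitinase genes and cofactors all were detected, with Usp7 at 100.7, Usp18 at 79.0 and Otud5 at 78.5 TPM the highest and Usp20 lowest at 6.40 TPM in the gene tables.

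Beside Tax1bp1, the autophagy receptors Sqstm1 at 131.6, Nbr1 at 64.1 and Optn at 26.9 TPM were detected, as was the A20 partner Rnf11 at 13.2 TPM. Calcoco1 was the lowest of this list in the gene tables at 11.6 TPM, and Rnf11 in the read-based tables at 11.2 TPM. In the NEDD4 family and its adaptors 7 of 10 genes were detected. Wwp1 at 77.2 TPM and Wwp2 at 65.4 TPM were above Itch at 39.3 TPM, Nedd4l was at 29.1 TPM (54.2 TPM in the read-based tables, against 52.0 TPM for Itch), and Hecw1 and Hecw2 averaged 0.0067 TPM each. All 11 NF-κB and IκB genes were detected. In the gene tables Nfkb1 at 77.9, Nfkbia at 56.2 and Nfkb2 at 25.3 TPM were the highest and Nfkbib at 5.50 TPM the lowest. The read-based tables put Nfkbia first at 90.3 TPM, before Nfkb1 at 79.9 and Bcl3 at 57.3 TPM. Nfkbia encodes IκBα, which holds NF-κB in the cytoplasm. By the gene tables it had 67.5, 62.6 and 38.4 TPM in replicates 1, 2 and 3. Its lowest library was replicate 3, as by TPM in the gene tables for Tnip3, Tnfaip3, Cyld, Otulin, Tax1bp1 and Itch. In the read-based tables Otulin and Tax1bp1 were lowest in replicate 2. How many of all genes were lowest in replicate 3 was not counted. All detected genes of these pathway lists entered edgeR's goodness-of-fit test. It called 0 of them, against 1.13% of 14789 genes, so 0 is near that share. Among the 10 macrophage markers it called Cd14, at 6.81, 19.6 and 20.4 TPM in replicates 1, 2 and 3 with an adjusted p of 0.00884.

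**Figure D5:**
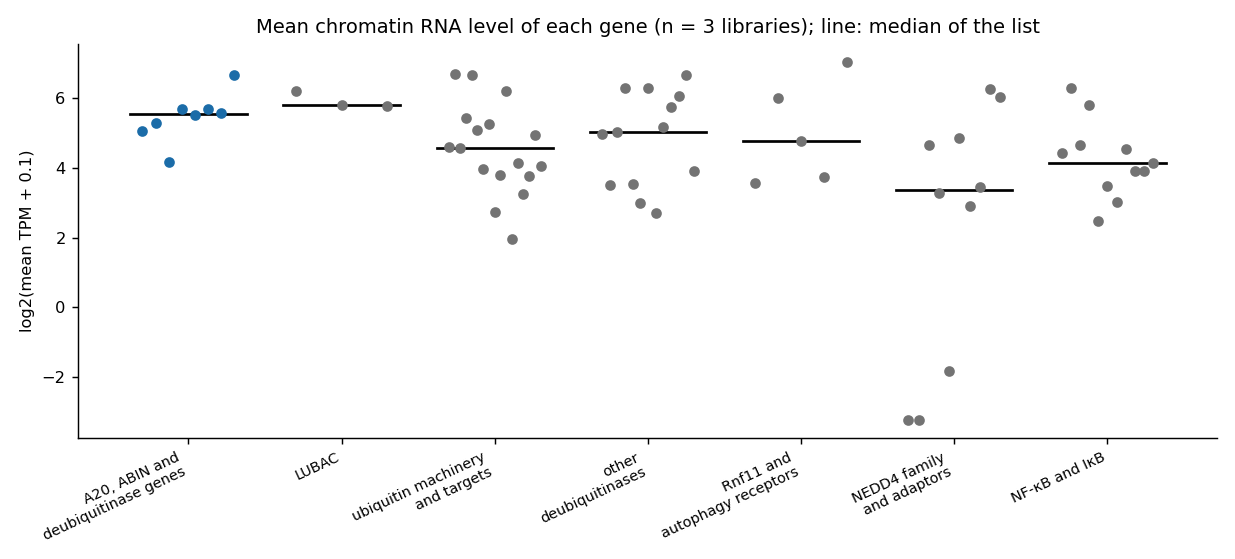
Mean level of each gene over the 3 libraries as log2(mean TPM + 0.1) (vertical axis), for the 8 genes (blue, left) and the pathway lists (grey), with a line at each list's median. The 8 genes lie between Otulin at 17.9 TPM and Tnip3 at 102.3 TPM, and Hecw1 and Hecw2 are the lowest points of the NEDD4 list.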

How the data were processed

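Total RNA-seq of 3 libraries in 1 group was analysed. Gene and transcript tables deposited by the authors hold expected counts and TPM, with interval bounds. Per the notes deposited with them, reads aligned to the transcriptome (mm10, GENCODE M21) were the input. Other deposited transcript tables give estimated counts and TPM computed from the reads. Each transcript's percent of its gene's TPM was deposited too. Aligner, quantifiers, versions and strand setting: not given in the sources used here. Entries that name no gene (1.39%, 0.288% and 0.283% of counts in replicates 1, 2 and 3) were left out of library sizes. A gene with no counts could reach 0.222, 0.150 or 0.165 CPM in replicates 1, 2 and 3 (3 counts), by counting error only.

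Expected counts were rounded and fitted in edgeR 4.0.16 (R 4.3.3; filterByExpr, TMM, intercept only, trended dispersion), and deviances were tested by chi-square at an adjusted p of 0.05. Log2 CPM used a prior count of 2. The step was also run on counts simulated from the same kind of model with the fitted dispersions. That run cannot show how the step behaves on real counts. The p-values concern the spread between libraries alone, which may be technical in part. Differences between genes used log2(TPM + 0.1), which slightly understates changes of low genes. Other tools were DESeq2 1.42.0, Python 3.11.15, pandas 2.3.3 and scipy 1.17.1. Promoter windows came from the RefSeq table (GRCm38.p6), in which 7 of the 8 genes matched, all but Itch. The second κB motif was added after the windows had been read. Named were the 8 genes, the 3 highest and the lowest gene of each pathway list and any gene called, the 3 genes nearest to Tnfaip3 and Tnip3, and each gene's highest transcripts. Rnf11, Ank and further Tnip3 and Tnfaip3 transcripts were named after their values were seen. The genes, lists and tests were chosen with earlier results of these data known.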

Additional observations from a re-analysis of the deposited data

How the results depend on the processing

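All 8 genes were detected and 0 called variable under every alternative tried for these counts, among them other thresholds, the read-based tables, DESeq2 size factors, no filter on low counts, and leaving out each replicate. Over all genes, edgeR called 167 of those tested, against 271 in the read-based tables, 57, 68 and 52 without replicates 1, 2 and 3, and 61 outliers in DESeq2. The difference of Tnip3 minus Tnip1 in log2 was 0.92, and it was 0.039 in the read-based tables and 1.91 in log2 CPM without length scaling. For Tnfaip3 minus Cyld it was 0.42, with 0.62 and 0.19 under these settings. The retained-intron share was 56.4% of summed TPM, 49.9% of expected counts and 48.3% as the mean of the shares per gene. The causes of these shifts were not tested, apart from length scaling, which is what log2 CPM leaves out. Leaving out each replicate gave 0.75 to 1.23 for Tnip3 minus Tnip1, 0.31 to 0.48 for Tnfaip3 minus Cyld and 54.9% to 59.1% for the share. Rescaling TPM to protein-coding nuclear genes divides by a smaller total, so it must raise every such gene. It put Tnip3 at 345.1 TPM in place of 102.3 and Otulin at 61.0 TPM in place of 17.9. After it Tnip2, Itch and Otulin were highest in replicate 3 in place of replicate 2. No paired analysis was possible because all libraries belong to 1 group. With 3 libraries, differences near the spread of Tnip3 cannot be resolved.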
